A study of Mus musculus with 9 samples.

Results

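The Slc25 family comprises the carriers that move metabolites, nucleotides, cofactors and ions across the inner mitochondrial membrane. Its members were taken as every gene whose name on the array begins with Slc25a. The array carried 59 such probes for 47 genes, out of 39429 probes and 31093 gene names in all. A probe entered the tests if Feature Extraction marked it as clearly brighter than background in every mouse (3 of 3) of some genotype. This left 50 probes for 40 genes of the family, and 27991 probes for 21905 gene names overall. Of the 47 genes, 12 had 2 probes, and 10 had both in use.

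The study varied IF1 in neurons and asked what follows for mitochondria and cognition; the question here is whether the carriers' mRNAs differed. Hippocampal RNA was hybridised from male mice of 9 months, 3 mice and 3 arrays per genotype, on a C57BL/6J background. IF1-KO mice carried a floxed Atp5if1 allele (Atpif1 on the array), whose exon 3 was removed by Cre under the Camk2a promoter in forebrain excitatory neurons. IF1 is the protein that inhibits the ATP synthase. IF1-TG mice carried human IF1 under tetO, driven by the tetracycline transactivator under the Camk2a promoter. CRL mice were the controls, and which Cre, floxed or transactivator alleles these 3 animals carried is not given in the sources used here. The floxed allele came from a C57BL/6NTac line and the transgenes from lines with CBA ancestry, so genotype and flanking strain DNA cannot be told apart. Cells outside the Camk2a lineage kept their IF1 in IF1-KO mice, and whole hippocampus was measured, so fewer cells of a type and less RNA per cell cannot be told apart.

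Values are log2 levels, meaning the log2 processed intensity of a probe minus the 75th percentile of its array, so that a positive value lies above that percentile. The probes of a gene with 2 are called brighter and dimmer by their mean level over the arrays. A difference is the mean log2 level of one genotype minus that of another. The targeted gene was read first. The Atpif1 level was 6.43, 5.20 and 5.53 on IF1-KO arrays 1 to 3, between 6.19 and 6.34 in CRL mice and between 6.38 and 6.51 in IF1-TG mice. The array labelled IF1-KO replicate 1 was thus not reduced. For several carriers the values without it are given as well. The probe detects mouse Atpif1, and whether it reads the human transgene was not tested. Between 66.7% and 69.5% of all probes were well above background on IF1-TG arrays, against 71.0% to 74.9% on the other 6. Choroid plexus markers (7 of 7 in use) stood high on 1 array per genotype, with summed linear signals of 99.5 (IF1-KO 3), 122 (CRL 2) and 187 (IF1-TG 1), against at most 10.9 on the rest. Some other cell-type sums were apart between genotypes. That of 8 oligodendrocyte markers was 93.3 to 137 in IF1-KO mice, 123 to 158 in CRL mice and 140 to 175 in IF1-TG mice, so that IF1-KO and IF1-TG mice did not overlap. That of 8 microglia markers was 50.2 to 56.9 in IF1-KO mice, below the 58.4 to 64.2 of CRL and the 61.0 to 70.6 of IF1-TG mice. In no comparison did a gene of either list pass a fold of 1.5 with unadjusted p under 0.05 (limma), and the part of these cells in the carriers' differences was not tested. All 10 hippocampal markers were in use, with sums of 61.7 to 106 in IF1-KO, 79.8 to 109 in CRL and 90.5 to 103 in IF1-TG mice. The sum of 7 striatal markers was 27.8 on CRL array 3 and 12.3 to 18.3 on the others. In each comparison with CRL mice 1 of these 7 passed the thresholds, lower. The part of dissection in the carriers' differences was not tested. Replicate arrays of a genotype correlated at 0.983 to 0.992 over probes.

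Each carrier is built from a repeated module of paired transmembrane helices. The end of the first helix in each repeat holds the family signature, a proline followed one residue later by an acidic residue, with a basic residue further on. The pyrimidine nucleotide carriers have tryptophan at the acidic position. The carriers switch between a state open to the cytosol and a state open to the matrix, and so couple oxidative phosphorylation, amino acid metabolism and iron use to the rest of the cell. In neurons they supply ADP and phosphate to the ATP synthase and link glutamate and aspartate metabolism to respiration.

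Some probes in the coding region read through the signature itself. They are shown because these 3 genes also had a second probe, so that both readings can be set side by side in the results. The capitals mark the codons for proline, any residue, and aspartate (Slc25a37, Slc25a26) or tryptophan (Slc25a33), found as CCNNNNGA or CCNNNNTGG in a reading frame without a stop.
Slc25a37: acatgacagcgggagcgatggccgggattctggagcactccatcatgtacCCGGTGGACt
Slc25a26: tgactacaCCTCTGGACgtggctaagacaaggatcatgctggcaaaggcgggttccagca
Slc25a33: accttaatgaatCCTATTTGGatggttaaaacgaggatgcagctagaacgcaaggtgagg
The letters CCNNNNGA occurred on the probe strand of 15.7% of all probes and 15.3% of the family's probes (26.5% and 25.4% on either strand), and CCNNNNTGG on 4.65% and 6.78% (7.01% and 6.78% on either strand), with any overlap counted. The letters alone are therefore no mark of a carrier. The Slc25a37 probe lies at chr14:69902797-69902856 on the minus strand of mm9, the build of the deposited probe annotation. That annotation gives no position for the other two, and exon or UTR boundaries on mm9 were not used here.

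The family as a whole differed little between genotypes. In IF1-TG against IF1-KO mice, 1 of 40 genes passed the study's thresholds (fold of at least 1.5 and unadjusted p under 0.05 with limma), and it was lower. Among all genes 4.70% passed, 2.15% higher and 2.56% lower. In IF1-TG against CRL mice, 1 of 40 passed, the same gene and again lower, against 5.59% of all genes, 2.83% higher and 2.79% lower. In IF1-KO against CRL mice, 0 of 40 passed, and 0 had a probe at unadjusted p under 0.05 with limma, against 1.34% (0.808% higher, 0.539% lower) and 3.24% of all genes. These comparisons share samples. In no comparison was the family's share above that of all genes.

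On unadjusted p alone, 2 of 40 genes had a probe under 0.05 in IF1-TG against IF1-KO mice (8.83% of all genes) and 3 of 40 in IF1-TG against CRL mice (10.5%). After Benjamini-Hochberg adjustment over the 27991 probes no member passed, the smallest adjusted p with limma being 0.660, 0.511 and 1.00 in the 3 comparisons in the order above. The median difference over the 50 probes was 0.00 (all probes 0.01), −0.07 (all probes 0.00) and −0.03 (all probes −0.01). Probes with a positive difference numbered 24, 19 and 22 of 50. The interquartile range of the family's differences was −0.17 to 0.12 in IF1-TG against IF1-KO mice (all probes −0.16 to 0.16), −0.18 to 0.06 in IF1-TG against CRL mice (all probes −0.17 to 0.16) and −0.14 to 0.08 in IF1-KO against CRL mice (all probes −0.13 to 0.12).

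The arrays were precise enough to bound many carriers. The 95% interval of the difference lay wholly within a 1.5-fold change either way for 30 of 50 probes in IF1-TG against IF1-KO mice (45.8% of all probes), 28 in IF1-TG against CRL mice (45.0%) and 29 in IF1-KO against CRL mice (50.3%). The median SD between mice of a genotype was 0.18 over the family's probes and 0.24 over all probes in use. Among the members, the dimmer probe of Slc25a37 had the widest spread, at 0.90, and the dimmer probe of Slc25a26 the narrowest, at 0.06.

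**Figure D1:**
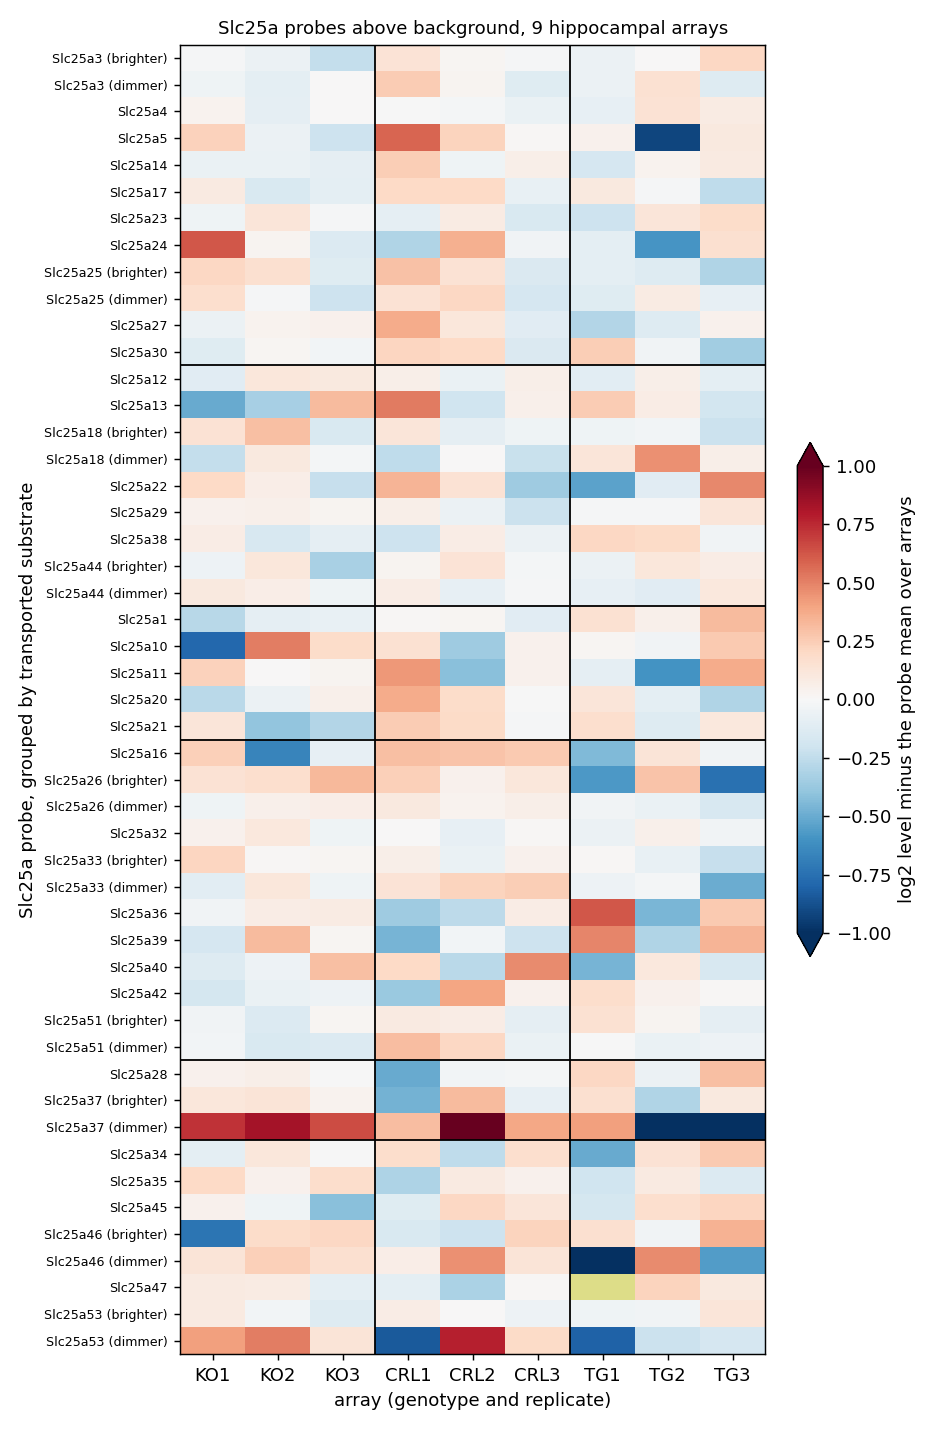
The log2 level of the Slc25a probes reported here on each of the 9 arrays, minus that probe's mean over the arrays (red higher, blue lower, clipped at 1 either way), with rows grouped by substrate. From the top the groups are adenine nucleotide, phosphate and uncoupling-like carriers, amino acid carriers, carboxylate and acylcarnitine carriers, cofactor and nucleotide carriers, iron carriers, and members in none of these; the yellow cell is the Slc25a47 spot left out on IF1-TG array 1. The dimmer Slc25a37 probe on IF1-TG arrays 2 and 3 and the dimmer Slc25a46 probe on IF1-TG array 1 are the darkest blue, and no block of carriers changes with genotype.

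The iron carriers held the only called member. Slc25a37 encodes mitoferrin-1, which brings iron into the matrix and is best known from developing red cells, and Slc25a28 encodes mitoferrin-2, its more widely expressed relative. At the dimmer, coding probe of Slc25a37 the log2 level was −2.72, −2.62 and −2.80 in IF1-KO mice, −3.14, −2.42 and −3.06 in CRL mice, and −3.04, −5.84 and −5.41 in IF1-TG mice. IF1-TG mice 2 and 3 stood far below every other mouse, and IF1-TG mouse 1 lay within the CRL range. All 3 IF1-TG values were below the IF1-KO values, whereas the IF1-TG and CRL values overlapped. As deposited, the processed intensity of this spot was 30.3 and 36.6 on IF1-TG arrays 2 and 3 and between 198 and 384 on the other 7, and it was well above background on all 9.

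The difference at this probe was −2.05 (SE 0.63, 4.14-fold lower, unadjusted p 0.0104 and adjusted p 0.660 with limma) in IF1-TG against IF1-KO mice, and −1.89 (SE 0.63, 3.71-fold lower, unadjusted p 0.0154 and adjusted p 0.511) against CRL mice. It was 0.16 (SE 0.63) in IF1-KO against CRL mice. This SE is pooled over the genotypes, whose own SDs were 0.09 in IF1-KO, 0.40 in CRL and 1.51 in IF1-TG mice. Under quantile normalization after a normexp background correction, the IF1-TG differences shrank to −1.17 and −1.09 (unadjusted p 0.00248 and 0.00393 with limma). Without IF1-TG array 1 the differences were −2.91 and −2.75, with adjusted p of 0.0285 and 0.0427 with limma, and without IF1-TG array 2 they were −1.51 and −1.35. The call against CRL mice was lost without IF1-TG array 2 (unadjusted p 0.0564 with limma), IF1-TG array 3 (−1.57, unadjusted p 0.0568) or CRL array 2 (−1.66, unadjusted p 0.0518). Leaving out IF1-KO array 1, whose label is in doubt, gave −2.06 from IF1-KO mice (unadjusted p 0.0260 with limma). The study also picked Slc25a37 from these same mice, so its direction is no independent evidence.

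The brighter Slc25a37 probe lies 42777 bases downstream, at chr14:69860020-69860079. Its log2 level was 1.00, 1.02 and 0.92 in IF1-KO mice, 0.41, 1.20 and 0.80 in CRL mice, and 1.04, 0.59 and 0.99 in IF1-TG mice. The genotypes overlapped, and IF1-TG mouse 3, among the lowest at the coding probe, stood close to the IF1-KO mice here. Its differences were −0.11 (SE 0.21, 95% interval −0.58 to 0.37) against IF1-KO mice and 0.07 (−0.41 to 0.54) against CRL mice. The gap between the brighter and the dimmer probe widened by 1.94 (SE 0.53, unadjusted p 0.00509 and adjusted p 0.525 with limma) in IF1-TG against IF1-KO mice and by 1.96 (unadjusted p 0.00492 and adjusted p 0.322) against CRL mice. It stayed past unadjusted p 0.05 whichever array was left out, between 1.55 and 2.72 against IF1-KO mice.

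**Figure D2:**
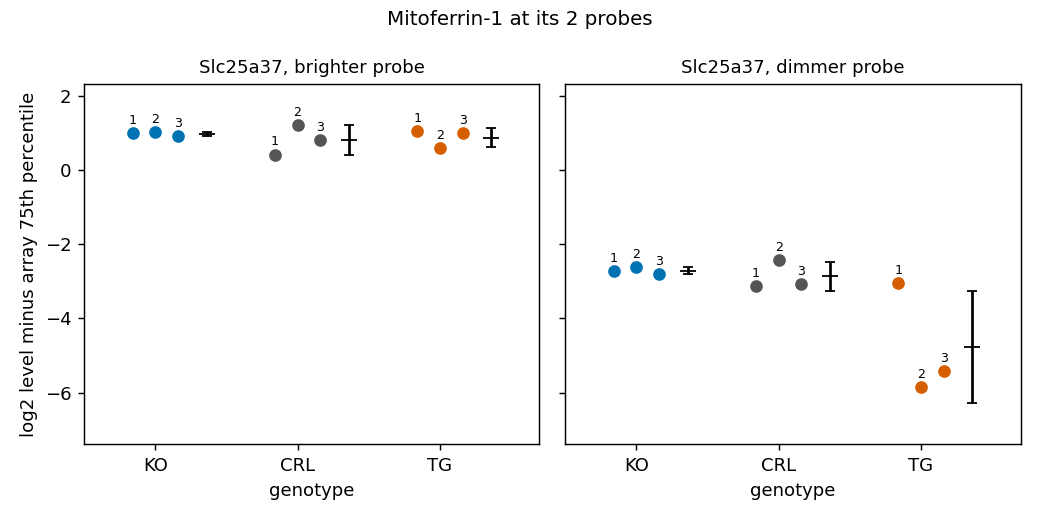
Log2 level (minus the array's 75th percentile) of Slc25a37 at its brighter and its dimmer probe for the 3 mice of each genotype (points numbered by replicate), with the mean and SD beside them. At the dimmer probe IF1-TG mice 2 and 3 lie at −5.84 and −5.41 and the other 7 between −3.14 and −2.42, while at the brighter probe the genotypes overlap.

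Slc25a28 did not share this pattern. Its log2 level was 2.03, 2.04 and 1.98 in IF1-KO mice, 1.48, 1.96 and 1.96 in CRL mice, and 2.19, 1.93 and 2.28 in IF1-TG mice. The differences of 0.12 (SE 0.16) against IF1-KO mice and 0.33 (SE 0.16, unadjusted p 0.0698 with limma) against CRL mice passed no threshold. Of the markers of blood, 7 of 11 were in use, with Epb4.2 not above background on any array. The summed blood signal was 50.9 to 109 in IF1-KO mice, 25.2 to 360 in CRL mice, and 74.5, 89.5 and 38.3 in IF1-TG mice 1 to 3. The choroid plexus signal of IF1-TG mice 1 to 3 was 187, 10.9 and 5.19. Leaving out the 3 arrays of high choroid plexus signal removed IF1-TG mouse 1, the IF1-TG mouse that was not low at the dimmer Slc25a37 probe, and the differences there were then −2.95 and −2.52. The part of blood or choroid plexus in the result was not tested.

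Among the carboxylate and acylcarnitine carriers, 0 of 5 genes passed the thresholds. Slc25a1, the citrate carrier, which exports citrate for cytosolic acetyl-CoA, had a log2 level of −0.21, −0.03 and −0.01 in IF1-KO mice, 0.08, 0.08 and −0.05 in CRL mice, and 0.22, 0.11 and 0.38 in IF1-TG mice. Every IF1-TG mouse lay above every mouse of the other genotypes. Other members also had genotypes apart, such as Slc25a42 (IF1-TG above IF1-KO mice) and Slc25a14 (IF1-KO below CRL mice). The share of all probes with genotypes apart was not taken, so such separations are a description, here and below. The Slc25a1 difference from IF1-KO mice was 0.32 (SE 0.12, 1.25-fold, unadjusted p 0.0268 and adjusted p 0.680 with limma), under the fold threshold, and that from CRL mice was 0.20 (SE 0.12). The difference from IF1-KO mice ranged from 0.25 to 0.38 when single arrays were left out. It no longer passed unadjusted p 0.05 with limma without IF1-KO array 1 (0.25, p 0.0949), IF1-TG array 3 (0.25, p 0.0870) or IF1-TG array 1 (0.33, p just above), and with normexp and quantile normalization it was 0.12 (p 0.472). Slc25a11, the oxoglutarate carrier of the malate-aspartate shuttle, was bright but unsteady, from 3.13 to 4.11 in IF1-TG mice and from 3.32 to 4.17 in CRL mice, and its intervals reached past a 1.5-fold change. Slc25a10 (dicarboxylate), Slc25a20 (carnitine and acylcarnitine) and Slc25a21 (oxodicarboxylate) differed by −0.33 to 0.24 over the 3 comparisons. Slc25a10 was lowest on the array labelled IF1-KO replicate 1, and without it differed by −0.27 in IF1-TG against IF1-KO mice and by 0.40 in IF1-KO against CRL mice. Slc25a21 was well above background on 7 of 9 arrays.

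Among the amino acid carriers, 7 of 9 genes were measured and 0 passed the thresholds. Slc25a18 encodes a glutamate carrier found mainly in astrocytes. Its dimmer probe read 0.93, 1.27 and 1.15 in IF1-KO mice, 0.92, 1.18 and 0.95 in CRL mice, and 1.29, 1.63 and 1.23 in IF1-TG mice. The IF1-TG mice all lay above the CRL mice, by 0.37 on average (SE 0.15, 1.29-fold, unadjusted p 0.0410 and adjusted p 0.572 with limma). With slide as a fixed block, where the difference rests on IF1-TG array 3 alone, it was 0.25, and within slide 2 it was 0.19. Without IF1-TG array 2 it was 0.25 (unadjusted p 0.143 with limma). The unadjusted p also rose above 0.05 without IF1-KO array 3, CRL array 1 or CRL array 3.
Its brighter probe, 457 bases away, read 2.15, 2.31 and 1.86 in IF1-KO mice, 2.13, 1.92 and 1.96 in CRL mice, and 1.97, 1.98 and 1.79 in IF1-TG mice. There the genotypes overlapped and the difference from CRL mice was −0.09 (SE 0.14), so the probes differed in sign. The gap between them changed by −0.46 in both IF1-TG comparisons (unadjusted p 0.0457 against IF1-KO and 0.0459 against CRL mice with limma), and the p was above 0.05 in both without IF1-KO array 2, CRL array 3, IF1-TG array 2 or IF1-TG array 3. Against IF1-KO mice it was also lost without IF1-KO array 1 (−0.34, p 0.154), and against CRL mice without CRL array 1 (−0.34, p 0.149). The summed signal of 7 astrocyte markers overlapped between genotypes, from 45.8 to 52.9 in IF1-KO, 50.9 to 58.3 in CRL and 51.0 to 59.6 in IF1-TG mice. Of these markers, 1 of 7 passed the thresholds in IF1-TG against IF1-KO mice and 0 against CRL mice. It was Aqp4, the astrocyte water channel, of which 1 probe read 0.54, −0.08 and 0.50 in IF1-KO mice, 0.78, 0.38 and 0.59 in CRL mice, and 1.07, 1.06 and 1.21 in IF1-TG mice. All IF1-TG values were above the others, by 0.79 over IF1-KO mice (unadjusted p 0.00249 and adjusted p 0.660 with limma) and 0.53 over CRL mice. The other Aqp4 probe overlapped between genotypes and differed by 0.40 and 0.28. Without IF1-KO array 1 both probes passed against IF1-KO mice, at 0.90 and 0.59 (unadjusted p 0.00259 and 0.0127 with limma). With slide as a fixed block in addition they were 0.999 and 0.07, resting on IF1-TG array 3 alone. The part of astrocytes in the Slc25a18 values was not tested.

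The aspartate-glutamate carriers were steady or imprecise. Slc25a12 (aralar), which drives the malate-aspartate shuttle in neurons, ranged from 2.76 to 2.99 over all 9 mice, and its 95% interval for IF1-TG against IF1-KO mice was −0.34 to 0.18. Its relative Slc25a13 (citrin) differed by −0.30 to 0.22 over the 3 comparisons. The 0.22, in IF1-TG against IF1-KO mice, was 0.06 without IF1-KO array 1. The −0.30, in IF1-KO against CRL mice, ranged from −0.54 to −0.10 over left-out arrays. Slc25a22, a glutamate carrier, had a wide spread, from −3.37 to −2.35 in IF1-TG mice alone. Slc25a29 (basic amino acids), Slc25a38 (glycine for heme synthesis) and Slc25a44 (branched-chain amino acids) differed by at most 0.19 either way.

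The cofactor and nucleotide carriers were all measured, and 0 of 10 passed the thresholds. Slc25a33 carries pyrimidine nucleotides. Its dimmer probe, which reads through the tryptophan-bearing signature, gave −1.03, −0.81 and −0.96 in IF1-KO mice, −0.79, −0.70 and −0.68 in CRL mice, and −0.97, −0.94 and −1.42 in IF1-TG mice. All IF1-TG and all IF1-KO values were below the CRL values. The difference of IF1-TG from CRL mice was −0.39 (SE 0.15, 1.31-fold lower, unadjusted p 0.0297 and adjusted p 0.547 with limma). Without IF1-TG array 3 it was −0.23 (unadjusted p 0.0904 with limma), and the unadjusted p was also above 0.05 without CRL array 2 or 3. The IF1-KO difference was −0.21 (SE 0.15). The brighter probe gave 2.29, 2.09 and 2.10 in IF1-KO mice, 2.13, 2.01 and 2.12 in CRL mice, and 2.09, 2.01 and 1.84 in IF1-TG mice. Its difference from CRL mice was −0.11 (SE 0.12), with overlapping values, and the gap between the probes did not pass unadjusted p 0.05 with limma.

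Slc25a26 carries S-adenosylmethionine, the methyl donor, into mitochondria. Its brighter probe, at chr6:94554505-94554564, read 0.73, 0.76 and 0.92 in IF1-KO mice, 0.83, 0.63 and 0.70 in CRL mice, and 0.01, 0.88 and −0.15 in IF1-TG mice. Here IF1-TG mice 1 and 3 stood below all the others, while IF1-TG mouse 2 lay among them. The difference from IF1-KO mice was −0.56 (SE 0.24, unadjusted p 0.0501 with limma), just outside both thresholds. Without IF1-TG array 2 it was −0.87 (unadjusted p 0.000224 and adjusted p 0.256 with limma) and that from CRL mice −0.79, both past them. The coding probe read −1.22, −1.13 and −1.11 in IF1-KO mice, −1.08, −1.15 and −1.12 in CRL mice, and −1.22, −1.24 and −1.34 in IF1-TG mice. At that probe the 95% interval for IF1-TG against IF1-KO mice was −0.34 to 0.11, within a 1.5-fold change.

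Slc25a16, a carrier linked to coenzyme A, was a member whose call in IF1-KO against CRL mice turned on the array labelled IF1-KO replicate 1. Its log2 level was −0.87, −1.77 and −1.19 in IF1-KO mice, −0.81, −0.82 and −0.84 in CRL mice, and −1.55, −0.98 and −1.15 in IF1-TG mice. The CRL values were nearly equal and all others lay below them. The difference of IF1-KO from CRL mice was −0.45 (SE 0.23, unadjusted p 0.0874 with limma). Without IF1-KO array 1 it was −0.66 (SE 0.22, unadjusted p 0.0201 and adjusted p 0.984), and Slc25a16 was then the only 1 of 40 members called, where 2.06% of all genes were. With slide as a fixed block in addition the difference was −0.64, resting on CRL array 3 alone among the CRL arrays. Slc25a36 (pyrimidine nucleotides) and Slc25a39 (glutathione) were each highest in IF1-TG mice 1 and 3 and passed against CRL mice when IF1-TG array 2 was left out, at 0.62 and 0.65. Other members of the group, Slc25a32 (folate and flavin), Slc25a40 (glutathione), Slc25a42 (coenzyme A) and Slc25a51 (NAD), differed by −0.30 to 0.18 over the 3 comparisons.

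**Figure D3:**
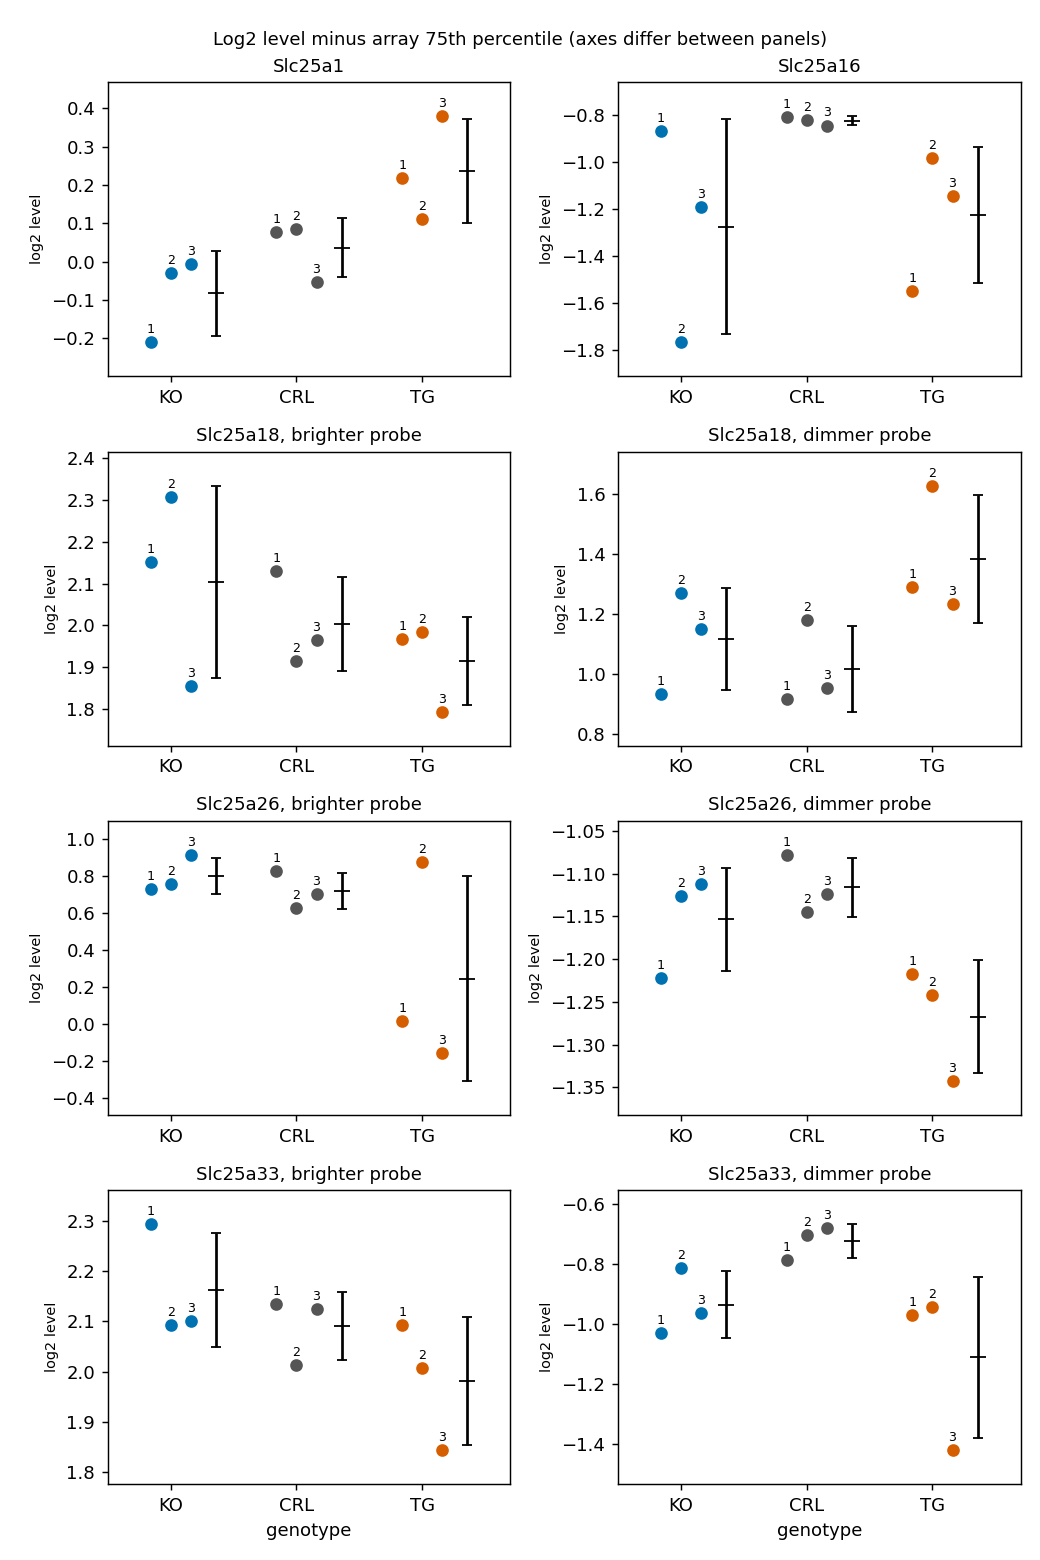
Log2 level (minus the array's 75th percentile) of Slc25a1, Slc25a16 and both probes of Slc25a18, Slc25a26 and Slc25a33 for the 3 mice of each genotype, numbered by replicate, with the mean and SD beside them; each panel has its own axis. Slc25a1 is higher in every IF1-TG mouse, the brighter Slc25a26 probe is low only in IF1-TG mice 1 and 3, and Slc25a16 is tight at −0.84 to −0.81 in CRL mice.

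Among the adenine nucleotide, phosphate and uncoupling-like carriers, 10 of 12 genes were measured and 0 passed the thresholds in any comparison. Only some of this group, such as the adenine nucleotide translocators and the phosphate carrier, feed the ATP synthase that IF1 acts on. Slc25a4, the adenine nucleotide translocator that exchanges ADP for ATP, was printed as 10 spots per array, whose SD within an array was 0.05 to 0.18. Its log2 level was 6.25, 6.13 and 6.22 in IF1-KO mice, 6.21, 6.20 and 6.15 in CRL mice, and 6.14, 6.36 and 6.30 in IF1-TG mice. The genotypes overlapped, and the 95% intervals were −0.18 to 0.31 for IF1-TG against IF1-KO and −0.17 to 0.32 for IF1-TG against CRL mice. Slc25a3, the phosphate carrier, ranged from 2.91 to 3.35 at its brighter probe, with an interval of −0.12 to 0.43 against IF1-KO mice. A 1.5-fold change in either mRNA thus lay outside these intervals.

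Slc25a5, the second adenine nucleotide translocator, fell to 1.62 on IF1-TG array 2 and lay between 2.32 and 3.11 on the other 8. Its difference of −0.53 (SE 0.28) from CRL mice did not pass. Without IF1-TG array 2 it was −0.20, and the difference from IF1-KO mice went from −0.25 to 0.08. The annotation places its probes on chromosomes 1 and 14 of mm9, whereas RefSeq places the gene on X, so the transcripts these probes read are uncertain. The ATP-Mg/phosphate carriers Slc25a23, Slc25a24 and Slc25a25, the uncoupling-like Slc25a14, Slc25a27 and Slc25a30, and the peroxisomal Slc25a17 differed by −0.35 to 0.16 over the 3 comparisons.

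**Figure D4:**
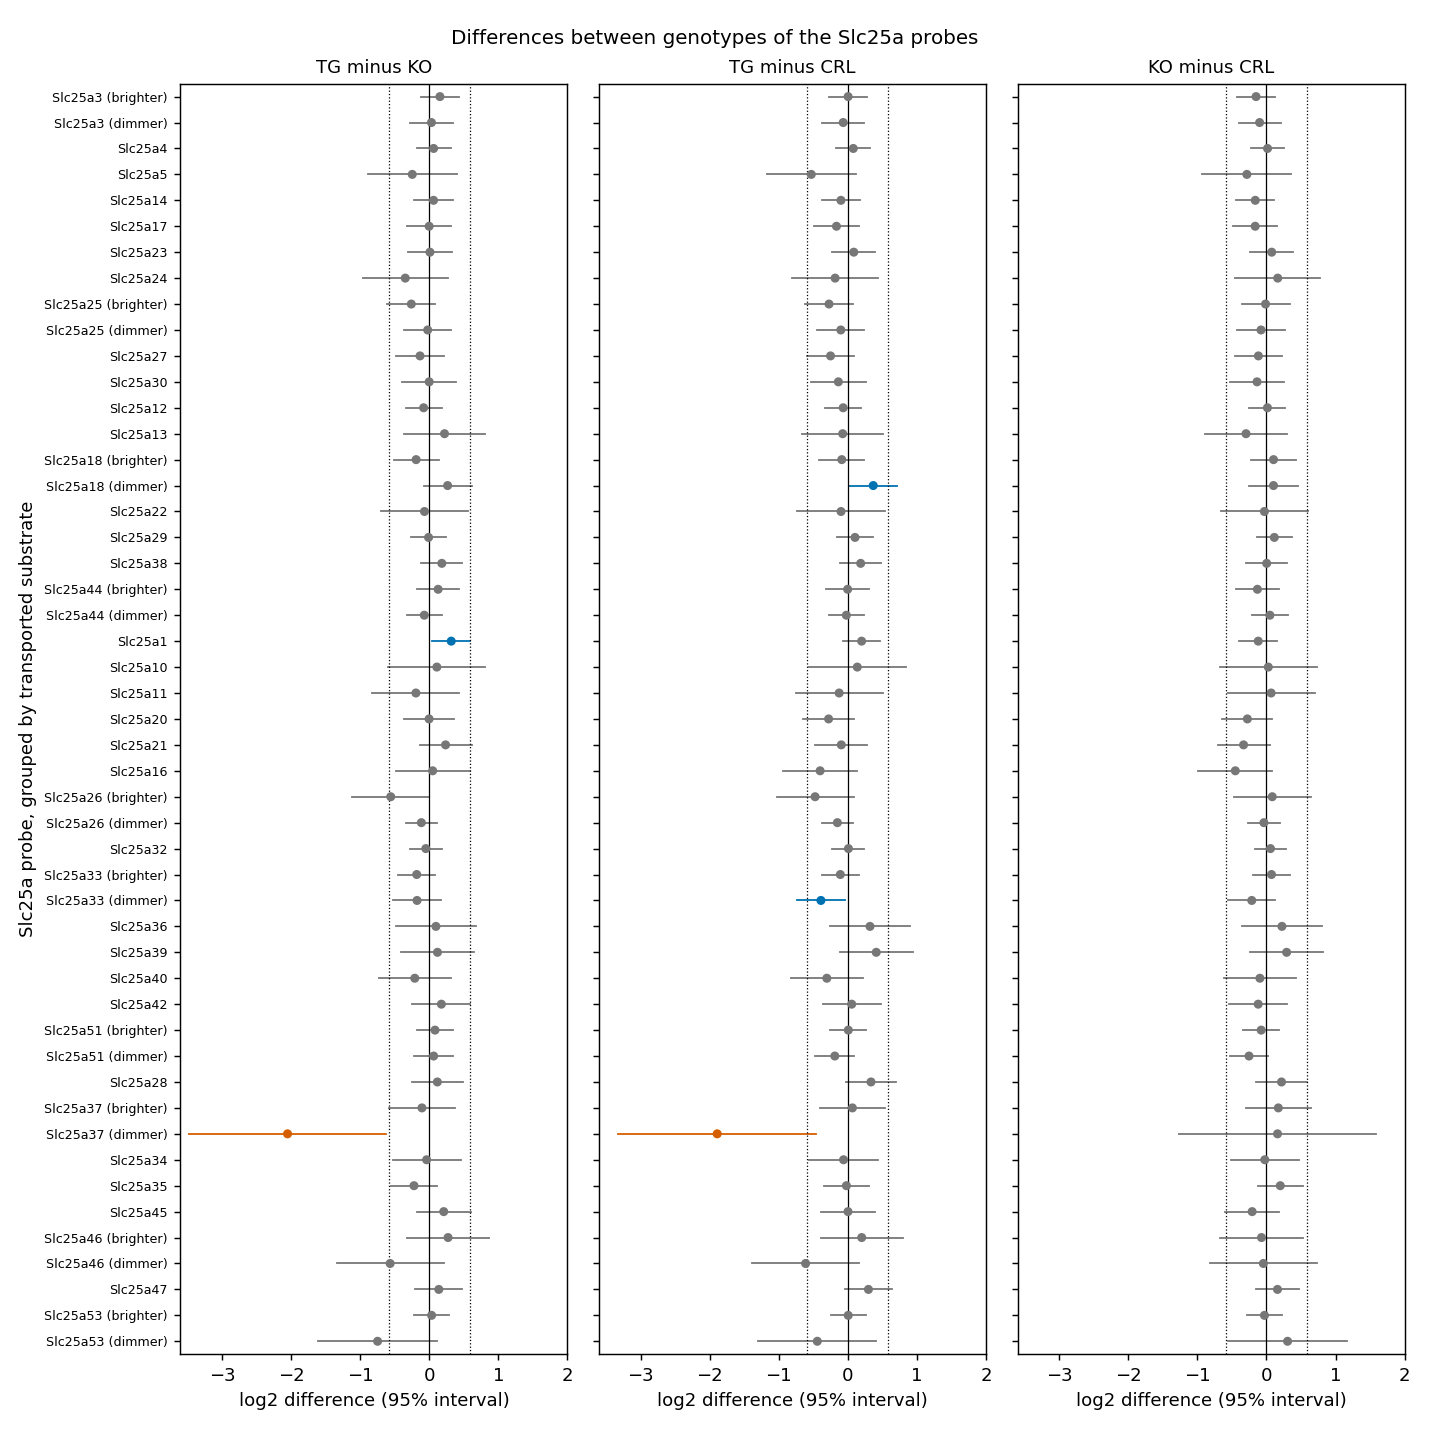
Log2 differences between genotypes with 95% intervals from limma for the Slc25a probes reported here, in the same order as by array, with dotted lines at a 1.5-fold change. Orange marks the dimmer Slc25a37 probe, the single probe past both thresholds, and blue marks probes at unadjusted p under 0.05 alone (Slc25a1 against IF1-KO mice; Slc25a18 and Slc25a33 against CRL mice); most intervals lie around 0.

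Of the remaining members, Slc25a46, an outer-membrane protein linked to mitochondrial shape, had probes that parted. Its dimmer probe read −3.83, −3.72 and −3.80 in IF1-KO mice, −3.89, −3.50 and −3.83 in CRL mice, and −5.05, −3.49 and −4.52 in IF1-TG mice. IF1-TG mice 1 and 3 were again the low ones, as at the brighter Slc25a26 probe. Its brighter probe, 1293 bases away, read 1.64, 2.56 and 2.58 in IF1-KO mice, 2.23, 2.17 and 2.60 in CRL mice, and 2.53, 2.34 and 2.73 in IF1-TG mice. The differences from IF1-KO mice were −0.57 (SE 0.34) at the dimmer and 0.27 (SE 0.26) at the brighter probe, and neither passed. The latter rested on the array labelled IF1-KO replicate 1 and was −0.04 without it, and the difference of IF1-KO from CRL mice at that probe went from −0.07 to 0.24. Without IF1-TG array 2 the dimmer probe passed, at −0.998 against IF1-KO mice (unadjusted p 0.00106 and adjusted p 0.333 with limma) and −1.04 against CRL mice (unadjusted p 0.000811 and adjusted p 0.176). The dimmer Slc25a53 probe was in use through the IF1-KO mice, being well above background on 3 IF1-KO, 2 CRL and 0 IF1-TG arrays, so any difference from it is drawn in part by the filter. As a bound between means, its IF1-TG level in these arrays was 1.34-fold or more below that of IF1-KO mice. This bound sets the mean of the IF1-KO mice against the higher of each array's lowest detected signal and the probe's own. It takes no account of the spread between mice. The fitted difference was −0.75, with an interval of −1.60 to 0.11 (unadjusted p 0.0791 and adjusted p 0.713 with limma). A lower level in IF1-TG mice was thus not established, and CRL mouse 1 lay below all IF1-TG mice.
Slc25a47 was fitted with 2 IF1-TG arrays, since its spot on IF1-TG array 1 was an outlier, and differed by 0.14 to 0.30. Slc25a34, Slc25a35 and Slc25a45, carriers whose substrates are less settled, differed by −0.22 to 0.21.

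The other 7 members were not tested. Slc25a31, a testis form of the translocator, and Slc25a41, Slc25a43 and Slc25a54 were not well above background on any array. Slc25a2 and Slc25a48 were on 2 arrays each and Slc25a15, the ornithine carrier, on 3. Low signal on these probes sets only a bound and does not show that the mRNA is absent.

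Across the 10 genes with both probes in use, the difference between the probes passed unadjusted p 0.05 with limma for 2 (Slc25a37 and Slc25a18) in IF1-TG against IF1-KO mice, for the same 2 against CRL mice and for 0 in IF1-KO against CRL mice. Of all 6086 such pairs on the array 8.66%, 10.5% and 2.58% passed. With 10 pairs these counts are a description. No pair of the family passed after adjustment. The probes differed in sign for 4, 6 and 4 of the 10 genes, and the next widest gap among pairs well above background on all arrays was that of Slc25a46 (0.84 against IF1-KO mice). Slc25a53 counts among the 10, although its dimmer probe has only a bound in IF1-TG mice.

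**Figure D5:**
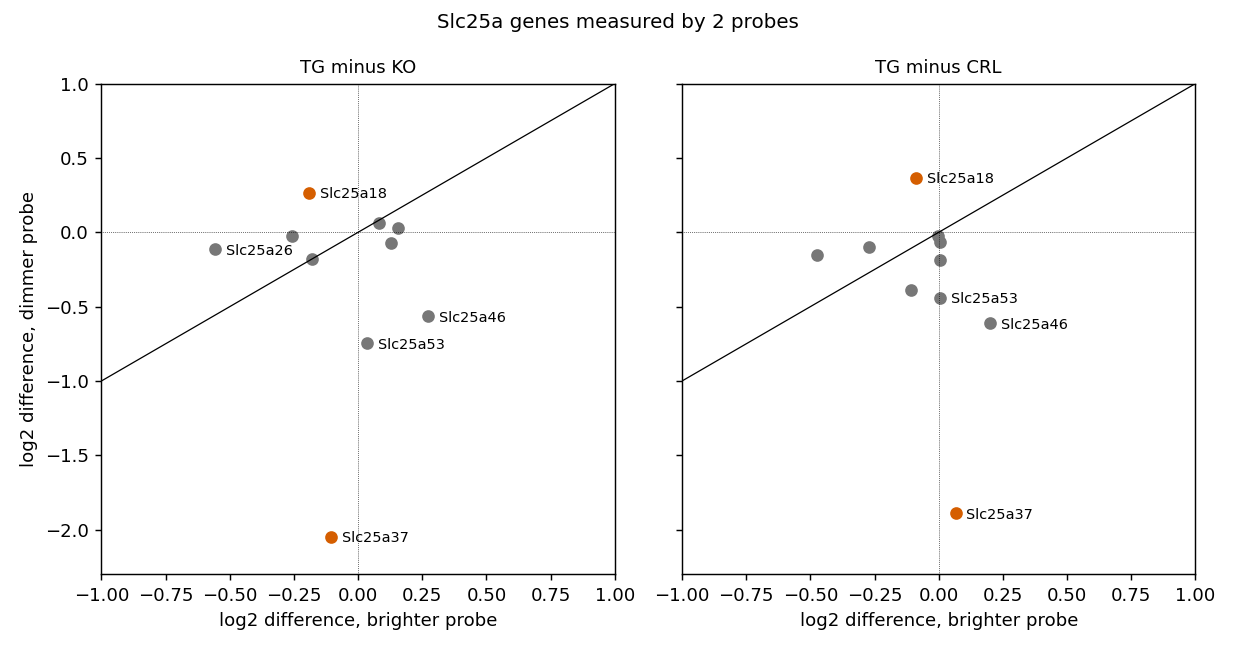
For the 10 Slc25a genes with 2 probes in use, the log2 difference at the dimmer probe against that at the brighter probe, for IF1-TG minus IF1-KO mice and IF1-TG minus CRL mice; the line marks equal values, and orange marks a gap between probes at unadjusted p under 0.05. Slc25a37 lies far below the line at −2.05 and −1.89 for its dimmer probe, and Slc25a18 above it; the dimmer Slc25a53 value was not above background in IF1-TG mice.

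The arrays lay on 3 slides, of which slide 2 held all genotypes (IF1-KO 1, CRL 1 and 2, IF1-TG 3), slide 1 IF1-TG 1 and 2 alone, and slide 3 IF1-KO 2 and 3 and CRL 3. With slide as a fixed block, 3 of 40 members passed in IF1-TG against IF1-KO mice (Slc25a26 lower, Slc25a37 lower, Slc25a46 higher at its brighter probe) where 6.41% of all genes did. Against CRL mice 4 of 40 passed, Slc25a33 lower in addition, where 9.93% of all genes did. The member shares were near those of all genes. The blocked differences of the dimmer Slc25a37 probe were −2.78 and −2.58, and within slide 2 alone −2.68 and −2.63. Those of the brighter Slc25a26 probe were −0.93 and −0.86, within slide 2 −0.89 and −0.88, and that of Slc25a33 from CRL mice −0.67, within slide 2 −0.68. The brighter Slc25a46 probe differed by 0.91 and 0.61 with the block, and the Slc25a1 difference from IF1-KO mice became 0.48, within slide 2 0.59. The only IF1-KO array on slide 2 was that labelled replicate 1, so the within-slide differences from IF1-KO mice set 1 IF1-TG array against an array of doubtful label.

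With the block and without that array, 1 of 40 members passed in IF1-TG against IF1-KO mice (Slc25a30 at −0.69, where 4.80% of all genes passed) and 1 against CRL mice (Slc25a33 at −0.68, where 9.74% did). The dimmer Slc25a37 probe then differed by −2.98 and −2.63 and no longer passed (unadjusted p 0.111 and 0.0600 with limma). The brighter Slc25a26 probe, at −1.02 and −0.88, did not pass either (unadjusted p 0.107 and 0.0603). The brighter Slc25a46 probe differed by 0.56 and 0.53, both under the fold threshold, and Slc25a1 by 0.26 from IF1-KO mice (unadjusted p 0.288).

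Calls among genes that work beside the carriers are given as counts. Of all genes, 4.70% passed in IF1-TG against IF1-KO mice, 5.59% in IF1-TG against CRL mice and 1.34% in IF1-KO against CRL mice. Lists this short cannot be set apart from those shares. Of the relatives listed under other symbols, such as the uncoupling proteins, 4 of 8 were measured and 0 passed in any comparison. Among 11 enzymes of aspartate and glutamate metabolism that use the carriers' substrates 0 passed. Of 14 other inner-membrane transport genes measured, 1 passed in each IF1-TG comparison, and the gene called lower against CRL mice is not reported here. Sfxn2, a sideroflexin linked to iron and heme, differed by 0.59 between IF1-TG and IF1-KO mice (SE 0.22, unadjusted p 0.0243 with limma) at 1 of its 2 probes, the other giving −0.10. Without IF1-KO array 1 these were 0.68 (unadjusted p 0.0253 with limma) and 0.20. With slide as a fixed block in addition the first was 0.74, resting on IF1-TG array 3 alone. Of 19 heme and iron-sulfur genes measured, only Tfrc, the transferrin receptor, passed, at 1 of 2 probes. That probe read −3.70, −3.48 and −2.89 in IF1-KO mice, −2.75, −2.73 and −3.49 in CRL mice, and −2.39, −2.66 and −2.21 in IF1-TG mice. The IF1-TG mice lay above the others, by 0.94 over IF1-KO mice (SE 0.27, unadjusted p 0.00770 and adjusted p 0.660 with limma), whereas its other probe gave −0.07. Without IF1-KO array 1 the difference was 0.77 (unadjusted p 0.0311 with limma). With slide as a fixed block in addition it fell to 0.24, resting on IF1-TG array 3 alone. Each of these calls, like that of Slc25a37, rested on 1 of 2 probes.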

How the data were processed

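The authors hybridised amplified, Cy3-labelled RNA from 9 hippocampi to 1-colour Agilent 4x44K v2 arrays, and the deposited files hold Feature Extraction 10.7.3.1 scanner output. Per the file headers, the processed intensity is background-subtracted on a linear scale. From it, log2 intensity was taken minus each array's 75th percentile. Control and outlier spots were left out, spots of a probe averaged, and a probe tested if flagged well above background in each of the 3 mice of any genotype. limma 3.58.1 (R 4.3.3) was fitted over all 9 arrays, with Benjamini-Hochberg adjustment over all kept probes and the study's thresholds (fold 1.5, unadjusted p 0.05). The difference between 2 probes of a gene was fitted the same way. The fit was tested on simulated data. With 3 arrays per genotype, their number limits the precision. No saturated spots occurred. p-values rest on a spread between mice that is pooled over the 3 genotypes and moderated over all probes. A probe measured on all 9 arrays thus has the same SE in each comparison. RefSeq (GRCm38.p6) gave chromosomes only. The members, gene lists and rule for named genes (any member past the thresholds, at unadjusted p under 0.05, or with disagreeing probes, the rest by range) were chosen with earlier results of these data known. Slc25a16, Slc25a26, Slc25a30, Slc25a36, Slc25a39, Slc25a46, Slc25a53 and Aqp4 were singled out after their values were seen. Some genes are not reported here. Alternatives were other normalizations, filters, blocks, probe choices and left-out arrays.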

Additional observations from a re-analysis of the deposited data

How the results depend on the processing

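All p-values here are unadjusted and from limma. The fixed slide blocks, whose IF1-TG differences rest on IF1-TG array 3 alone, are not counted as tests here. The dimmer Slc25a37 probe stayed past the thresholds in IF1-TG against IF1-KO mice under every other alternative with a test but the brightest probe of each gene (−0.11). With slide as a fixed block without IF1-KO array 1, an alternative chosen after seeing the data, its difference was −2.98. Its size fell to −1.17 with normexp and quantile normalization and to −1.08 with the mean of the probes. Against CRL mice the brightest probe reversed it (0.066), and likewise the Slc25a18 difference (−0.088). For most alternatives, the counts of Slc25a genes called have no share of all genes beside them. They are therefore not read as a result about the family. In IF1-TG against IF1-KO mice the count was 2 with no filter on dim probes, 2 with only the 2 genotypes compared (Slc25a53 in addition) and 0 with the brightest probe. It was 1 to 3 when single arrays were left out. Against CRL mice it was 3 with no filter and 0 with the brightest probe, and 0 to 4 when single arrays were left out. In IF1-KO against CRL mice it was 1 with no filter (Slc25a48) and 1 without the 3 arrays of high choroid plexus signal (Slc25a13), an alternative chosen after seeing the data, and 0 to 1 when single arrays were left out. Slc25a53, whose dimmer probe passed the filter through the IF1-KO mice where it is high and was not above background in IF1-TG mice, was past the thresholds against IF1-KO mice without CRL array 1 or 2 and against CRL mice without CRL array 1, so these counts draw on the filter. The median difference from CRL mice in IF1-TG mice moved from −0.07 to −0.018 with slide as a fixed block, −0.020 with that block without IF1-KO array 1, −0.015 without the choroid plexus arrays and −0.020 within slide 2. Its range over left-out arrays was −0.10 to −0.03, that against IF1-KO mice −0.02 to 0.02, and that of IF1-KO against CRL mice −0.05 to −0.01. Probe pairs at p under 0.05 numbered 1 to 3, 1 to 3 and 0 in the 3 comparisons over left-out arrays. No count was made within a slide, since these values have no test. The causes were not tested.

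With the replicate block, 2 Slc25a genes were called in IF1-TG against IF1-KO mice (Slc25a37, and Slc25a53 with the same limit), 1 in IF1-TG against CRL mice and 0 in IF1-KO against CRL mice. The share of all genes under this block was not taken, so these counts are a description. The replicate numbers share only a number, since the deviations of same-numbered arrays correlated at −0.17 to 0.12.

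Limits are those of 3 arrays per genotype, intervals with a median half-width of 0.35 on the log2 scale, and dim probes near background, of which more were lost on IF1-TG arrays.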
